A study of Mus musculus with 12 samples.

Results

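The histone genes described here are the 52 genes, of 12028 with deposited expression values, whose symbols begin with Hist1h, Hist2h, Hist3h or Hist4h, or with H1f, H2af or H3f. No measured value entered that choice. Of the 52, 42 carry a Hist symbol and are called replication-dependent here. They comprise 2 H1, 16 H2A, 13 H2B, 4 H3 and 7 H4 genes, with 32 on chromosome 13, 9 on chromosome 3 and 1 on chromosome 11. The other 10 are H1f0 and H1fx, the H2A genes H2afj, H2afv, H2afx, H2afy, H2afy2 and H2afz, and the H3 genes H3f3a and H3f3b. Values in every library were present for 44 of the 52. The remaining 8 (Hist1h2bh, Hist1h2bq, Hist1h2br, Hist2h2be, Hist1h3e, Hist1h4b, Hist1h4n and Hist2h4) had no values in the DHT libraries and averaged under 1 FPKM elsewhere.

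The RNA came from M2-10B4 cells, an established stromal line from mouse bone marrow with the strain background C57BL/6J X C3H/HeJ. Cells were kept for 9 days in 1 of 4 conditions, with 3 biological replicates each. Control cells received regular medium, whose composition the labels do not give, and no androgen. DHT cells received 10 nM dihydrotestosterone, an androgen, in that medium. ADM cells were switched at confluence to adipocyte differentiation medium, a phenol red-free RPMI medium with 10% charcoal-stripped serum, 2 µg/mL insulin, 1 µM dexamethasone (a glucocorticoid) and 2 µM rosiglitazone (an agonist of the adipocyte regulator PPARγ). ADM+DHT cells received that medium with 10 nM DHT, so effects of single components of the medium cannot be told apart in a comparison of ADM with control. The design asks how this medium and DHT, singly and together, change gene expression. All 4 groups are of 1 cell line, and RNA was poly(A)-selected before strand-specific libraries were made.

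Histones are the proteins around which DNA is wound: H2A, H2B, H3 and H4 form the nucleosome core and H1 binds the DNA between cores. Replication-dependent histone genes lie in clusters, mostly lack introns, and are transcribed mainly in S phase, when new DNA has to be packaged. Their messenger RNAs usually end in a short stem-loop, bound by the protein Slbp, in place of a poly(A) tail. Some of these genes are also known to give polyadenylated transcripts, in particular in cells that have stopped dividing. Most genes for histone variants lie alone, give polyadenylated messages throughout the cell cycle, and supply histones that are exchanged into chromatin outside replication. Among them H2afx also holds the stem-loop in its annotated transcript. Poly(A) selection therefore discards most of the normal message of the first class, and the libraries measure what carried a tail or was carried over. These forms cannot be told apart in gene totals.

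The 16-base histone stem-loop, with any base allowed at its variable positions, was searched for on the sense strand of the transcripts of GENCODE release M21 (GRCm38), because it marks the message end that usually takes the place of a poly(A) tail. It occurred in a coding transcript of 47 of 21901 protein-coding genes (0.215%), and 27 of the histone genes held it: 26 of the 42 replication-dependent genes and H2afx among the other 10. The sites below are those of genes whose values are described further on. Capitals mark the stem-loop, lower case up to 7 bases on each side, and the coordinates are those of the capitals.
Hist1h2ag (chr13:22042483-22042498, minus strand): caacaaaGGCTCTTTTCAGAGCCacctaac
Hist1h2ao (chr13:21810898-21810913, plus strand): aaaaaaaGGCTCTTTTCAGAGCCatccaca
Hist2h2aa2 (chr3:96239784-96239799, minus strand): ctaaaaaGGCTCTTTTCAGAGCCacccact
Hist1h2bg (chr13:23571843-23571858, plus strand): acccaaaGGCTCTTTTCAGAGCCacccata
Hist1h1c (chr13:23739512-23739527, plus strand): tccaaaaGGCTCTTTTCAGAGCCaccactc
Hist2h3c1 (chr3:96247327-96247342, plus strand): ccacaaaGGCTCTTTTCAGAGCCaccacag
Hist1h4h (chr13:23531458-23531473, plus strand): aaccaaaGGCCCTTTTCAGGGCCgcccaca
Hist1h4i (chr13:22040966-22040981, minus strand): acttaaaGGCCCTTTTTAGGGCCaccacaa
H2afx (chr9:44335240-44335255, plus strand): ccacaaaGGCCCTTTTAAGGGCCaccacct
The form GGCTCTTTTCAGAGCC was the commonest, in 18 genes of the H1, H2A, H2B and H3 families. The 4 H4 genes with a match carried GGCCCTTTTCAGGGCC or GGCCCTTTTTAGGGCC, in 2 genes each, and H2afx carried a form found in no other histone gene here, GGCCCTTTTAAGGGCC. In Hist1h2ag and Hist1h2ao the annotated transcript ended 23 and 31 bases after the stem-loop. In Hist1h1c, Hist2h3c1 and H2afx it continued for 840, 1167 and 822 bases beyond it. Hist1h2bc, the most abundant H2B gene here, is annotated with a 2-exon transcript that holds no match. The absence of a match says only that these letters are not in the annotated transcript.

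Many of the replication-dependent genes are near-identical copies. Windows of 150 bases, the read length, were compared with all other transcripts of the annotation. All windows of Hist2h2aa2 and 87.0% of those of Hist2h2aa1 also occurred in another gene, each other included. The share was 91.5% for Hist1h2ao, 91.0% for Hist1h2ap, 65.5% for Hist1h2ag and 84.8% for Hist1h2ah, and each of these 4 shared windows with other H2A genes of chromosome 13. All windows of Hist2h3c1 were shared with Hist2h3c2 or with Gm20634, an annotated gene whose transcripts also cover Hist2h2aa1 and Hist2h2aa2. How the authors' software divided such reads among copies is not given in the sources used here, so single values of these genes are uncertain and sums over groups of copies are given beside them. Hist1h2bc (17.4%), Hist1h2bg (39.0%), Hist1h4h (28.0%) and Hist1h1c (0%) shared less, and among the other class only H2afz (20.1%) and H3f3a (3.40%) shared more than 1% of windows.

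Expression is given as FPKM, the number of sequenced fragments scaled to transcript length and library size. The FPKM of a library added up to 240650 to 262947, with 10502 to 10633 genes above 1 FPKM, and the depth of the libraries is unknown. The 13 mitochondrially encoded genes held 9.57% ± 0.34 (SD, n = 3) of the sum in control libraries and 10.2% ± 0.45 in DHT libraries, and 16.8% ± 0.42 and 13.6% ± 0.31 in those of ADM and ADM+DHT. All 5 adipocyte markers checked (Adipoq, Fabp4, Plin1, Cidec and Lpl) rose in ADM, and their summed level went from 6.84 to 7.18 FPKM in control to 1762 to 1852 in ADM and 616 to 663 in ADM+DHT. The 5 stromal markers were present in every library, with sums of 1707 to 1735 FPKM in control, 1838 to 1917 in DHT, 1015 to 1070 in ADM and 1543 to 1556 in ADM+DHT. In ADM 3 of them rose (Cxcl12, Pdgfra and Vcam1) and 2 fell (Col1a1 and Pdgfrb). Of 5 macrophage markers Cd68 and Lyz2 were in the tables, summing to between 5.25 and 10.2 FPKM, and of 4 muscle markers Des alone was, at 0.658 to 1.75 FPKM. In bulk RNA, fewer cells of a kind and less RNA per cell cannot be told apart. Differences below are on the scale log2(FPKM + 1) with their standard error (SE). A gene was tested where its mean reached 1 FPKM in a compared group, and a gene is said to have risen or fallen where limma gave an adjusted p under 0.05 over all genes tested.

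In ADM against control the replication-dependent histone genes moved in both directions. The H2A genes of chromosome 13 fell, while the H2A genes of chromosome 3, the H2B gene Hist1h2bc and the H4 gene Hist1h4h rose. Among the other histone genes H2afz fell most and H2afj was the only one of the 10 that rose. Across all genes 61.6% passed in this comparison (28.3% higher and 33.3% lower), so a change as such was the common outcome. Of the 52 histone genes 37 were tested: 12 rose, 18 fell and 7 did not pass. The 27 replication-dependent genes tested gave 11 rises and 11 falls, with a median log2 difference of 0.36, and the 10 others gave 1 rise and 7 falls with a median of -0.34, against a median of -0.03 over all genes tested. A gene that reached 1 FPKM in 1 of the groups only had to differ between them, and 15 of the 27 did so. Of the 12 that reached it in both groups, 5 rose, 5 fell and 2 did not pass.

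**Figure D1:**
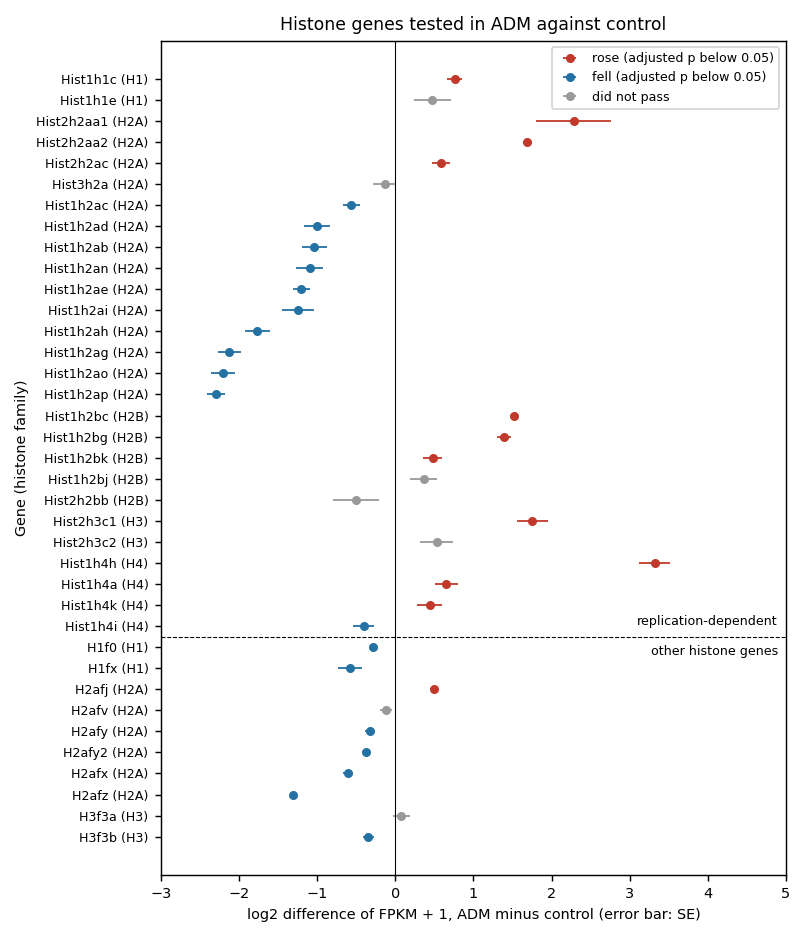
Log2 difference of FPKM + 1 between ADM and control, with SE, for the 37 histone genes tested (n = 3 libraries per group), replication-dependent genes above the dashed line and the others below it. The 10 tested H2A genes named Hist1h2a lie left of 0 and the 3 named Hist2h2a right of it, with Hist1h4h at 3.32 and Hist1h2ap at -2.29.

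Hist1h2ap (chr13:21833026-21833507, minus strand) encodes a core H2A protein and was the most abundant H2A gene of chromosome 13. It stood at 44.5, 34.0 and 41.7 FPKM in the 3 controls, 33.5, 35.6 and 42.6 in the 3 DHT libraries, 8.40, 6.91 and 6.77 in the ADM libraries and 4.52, 4.20 and 3.00 in those of ADM+DHT. Every adipogenic library lay below every library in regular medium, and the ADM and ADM+DHT libraries did not overlap. The difference of ADM from control was -2.29 ± 0.12 (adjusted p = 2.34e-06). Its near-identical copy Hist1h2ao (chr13:21810465-21810944, plus strand) gave 30.6, 22.2 and 29.8 FPKM among controls, 23.7, 22.4 and 29.4 after DHT, 5.59, 5.79 and 4.14 after ADM and 3.30, 2.36 and 2.18 after ADM+DHT, with the same order of groups and a difference of -2.21 ± 0.15 (adjusted p = 1.11e-05). Hist1h2ag and Hist1h2ah, further H2A genes of that cluster, followed. Hist1h2ag read 16.3, 12.9 and 16.2 FPKM in the control libraries, 12.3, 11.3 and 15.6 with DHT alone, 2.31, 2.34 and 3.50 in ADM and 0.669, 1.08 and 1.37 when ADM held DHT. The respective values of Hist1h2ah were 15.0, 12.3 and 16.6, then 11.9, 12.2 and 13.8, then 3.65, 2.74 and 4.50, and 0.910, 0.815 and 1.34. In both genes all libraries in regular medium lay above all adipogenic libraries, and the ADM differences were -2.12 ± 0.14 and -1.77 ± 0.16.

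The other 6 tested H2A genes of chromosome 13 were lower expressed, at control means of 1.14 (Hist1h2ac) to 3.69 FPKM (Hist1h2ai), and all 6 fell. Their ADM differences ran from -0.56 (Hist1h2ac) to -1.25 (Hist1h2ai), and 2 further genes, Hist1h2af and Hist1h2ak, stayed under 1 FPKM on average in each group and were not tested. With a pseudocount of 0.1 in place of 1 the differences of these 6 were larger, from -1.18 (Hist1h2ac) to -2.04 (Hist1h2an), which shows how far the scale shrinks changes of low genes. Summed over the 12 H2A genes of chromosome 13, FPKM was 127, 96.3 and 120.4 in the 3 controls, 95.2, 95.1 and 119.7 in the 3 DHT libraries, 24.2, 22.2 and 24.1 in the ADM libraries and 11.7, 10.8 and 9.82 in those of ADM+DHT. The control sum was 4.87 times the ADM sum. Such a sum depends less on how reads were divided than a single gene does, but still depends on it, since FPKM is scaled to lengths that differ among copies, and Hist1h2aj, which shares windows with several of the genes, is not analysed here. These genes made up 39.5% ± 1.25 (SD, n = 3) of all replication-dependent FPKM in control and 4.07% ± 0.27 in ADM.

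Hist2h2aa1 (chr3:96245497-96246082, plus strand) and Hist2h2aa2 (chr3:96239749-96240276, minus strand) are the H2A pair of the cluster on chromosome 3, and moved the opposite way. Hist2h2aa2 was the highest replication-dependent gene of the data, at 61.7, 65.0 and 61.7 FPKM among controls, 86.5, 86.2 and 99.9 after DHT, 189, 214 and 213 after ADM and 146, 162 and 152 after ADM+DHT. No libraries of any pair of groups overlapped, and ADM exceeded control by 1.69 ± 0.06 (adjusted p = 3.16e-07). Hist2h2aa1 varied more: 44.8, 11.7 and 50.1 FPKM in the control libraries, 68.9, 63.6 and 33.7 with DHT alone, 139.9, 152 and 159 in ADM and 52.2, 116 and 111 when ADM held DHT. Control replicate 2, DHT replicate 3 and ADM+DHT replicate 1 lay below the rest of their groups in this gene, while DHT replicate 3 was the highest DHT library in Hist2h2aa2. Hist2h2aa1 rose by 2.29 ± 0.48 in ADM (adjusted p = 0.00457), or by 1.64 without control replicate 2. The sum of the pair was 107, 76.7 and 112 FPKM in the 3 controls, 155, 149.8 and 134 in the 3 DHT libraries, 329, 366 and 371 in the ADM libraries and 199, 278 and 262 in those of ADM+DHT. The groups did not overlap in that sum, and the ADM mean was 3.62 times the control mean. Within their groups control replicate 2, DHT replicate 3 and ADM+DHT replicate 1 were lowest in the sum too. Gm20634, which shares windows with both genes, is not in the sum, which therefore still depends on how reads were divided.

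The remaining H2A genes of the class were low. Hist2h2ac, also on chromosome 3 and with no window shared with another gene, rose from 0.910 ± 0.0155 FPKM (mean ± SD, n = 3) in control to 1.90 ± 0.431 in ADM (log2 difference 0.59 ± 0.12, adjusted p = 0.00323). Hist3h2a, the single member on chromosome 11, averaged 2.87 and 2.50 FPKM in these groups and did not pass (-0.13 ± 0.15). Of the H2A genes that reached 1 FPKM in both groups, 4 of 4 on chromosome 13 fell and 2 of 2 on chromosome 3 rose. The other 6 tested on chromosome 13 reached it in control only and Hist2h2ac in ADM only, so that the filter favoured their directions.

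**Figure D2:**
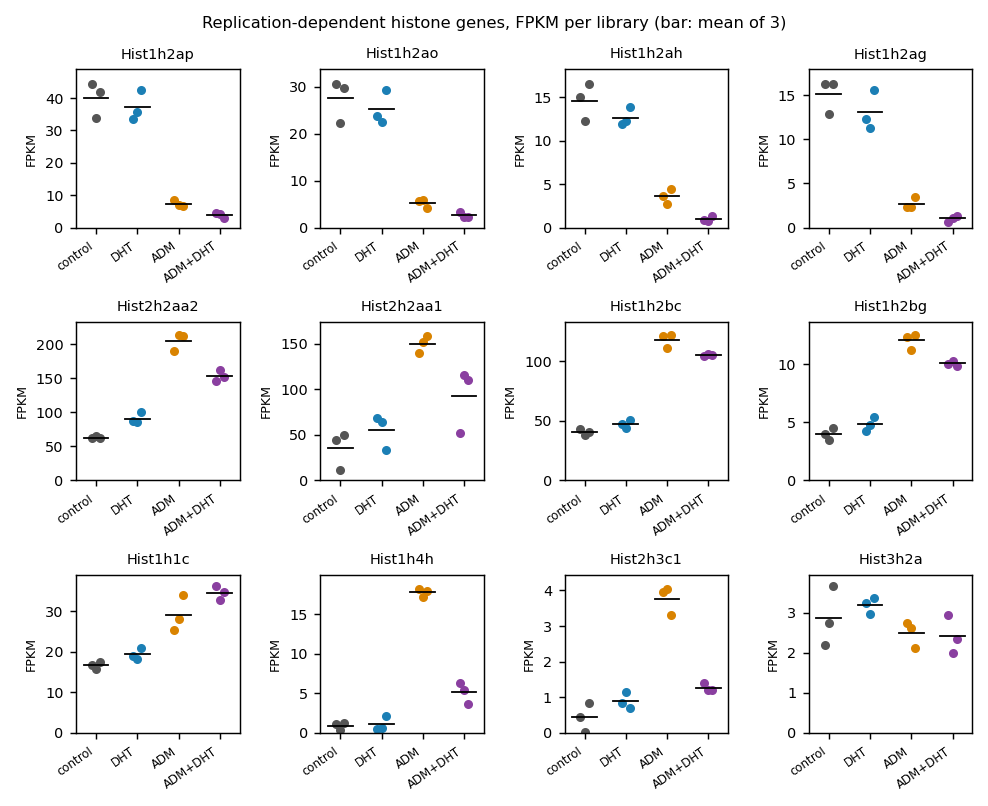
FPKM in each of the 12 libraries (points) with the group mean (bar) for 12 replication-dependent genes, each panel with its own axis from 0. The H2A genes Hist1h2ap, Hist1h2ao, Hist1h2ah and Hist1h2ag are low in both adipogenic groups, Hist2h2aa2, Hist2h2aa1, Hist1h2bc, Hist1h2bg and Hist1h1c are high there, and Hist1h4h and Hist2h3c1 are highest in ADM.

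H2B genes, whose protein pairs with H2A in the nucleosome, gave 3 rises in ADM among 5 genes tested. Hist1h2bc (chr13:23684199-23692908, plus strand) held most of the H2B message: 42.7, 38.1 and 40.5 FPKM among controls, 47.3, 44.3 and 50.8 after DHT, 121, 111 and 122 after ADM and 104, 106 and 105 after ADM+DHT. All adipogenic libraries exceeded all libraries in regular medium, and the ADM difference was 1.53 ± 0.06 (adjusted p = 5.46e-07). Hist1h2bg rose by 1.39 ± 0.09, from 4.00 ± 0.541 to 12.1 ± 0.687 FPKM, and Hist1h2bk by 0.48 ± 0.12, from 0.726 ± 0.223 to 1.40 ± 0.201 FPKM. Hist1h2bk reached 1 FPKM in ADM only, which favoured a rise. Hist1h2bj and Hist2h2bb did not pass (0.36 ± 0.18 and -0.50 ± 0.30), and 8 of the 13 H2B genes were too low to test. Hist2h2bb varied among control libraries, at 0.290, 2.21 and 0.955 FPKM. Hist1h2bc with Hist2h2aa1 and Hist2h2aa2 made up 47.8% ± 1.16 (SD, n = 3) of replication-dependent FPKM in control and 57.6% ± 4.20 in DHT libraries, and 81.8% ± 0.76 and 81.7% ± 2.73 in those of ADM and ADM+DHT.

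The linker histone gene Hist1h1c gave 16.8, 15.8 and 17.5 FPKM in the control libraries, 18.9, 18.3 and 20.9 with DHT alone, 25.3, 28.1 and 33.9 in ADM and 36.1, 32.7 and 34.8 when ADM held DHT. It rose in ADM by 0.76 ± 0.10 (adjusted p = 0.000421), with no overlap between the ADM and control libraries. Among H4 genes Hist1h4h (chr13:23531050-23531519, plus strand) had the largest rise of all histone genes tested. It stood at 1.18, 0.332 and 1.30 FPKM in the 3 controls, 0.497, 0.570 and 2.14 in the 3 DHT libraries, 18.2, 17.2 and 18.0 in the ADM libraries and 6.28, 5.47 and 3.61 in those of ADM+DHT. The ADM libraries lay far above all others, with a difference from control of 3.32 ± 0.20 (adjusted p = 5.31e-06), or 4.29 with a pseudocount of 0.1. The other 3 tested H4 genes were at or under 2.31 FPKM on average. Hist1h4h, Hist1h4a, Hist1h4k and the H3 gene Hist2h3c1 reached 1 FPKM in ADM only, so that the filter favoured a rise. Hist1h4a rose by 0.65, Hist1h4k rose by 0.44 and Hist1h4i fell by 0.41 on the log2 scale. The calls of the last pair did not last: the adjusted p reached 0.154 for Hist1h4k and 0.125 for Hist1h4i under other settings or without 1 library, among them ADM replicates 1 and 2 for both genes, control replicates 1 and 2 for Hist1h4k and control replicate 3 for Hist1h4i. Of the H3 genes, Hist2h3c1 rose from 0.459, 0.0336 and 0.854 FPKM in control to 3.95, 4.03 and 3.32 in ADM (1.76 ± 0.20, adjusted p = 0.00018), while Hist2h3c2, which shares sequence with it, did not pass (0.53 ± 0.21).

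Summed over the 34 replication-dependent genes with values in all libraries, FPKM was 310.2, 247 and 312 among controls, 333, 328 and 349 after DHT, 554, 578 and 606 after ADM and 385, 459.9 and 443 after ADM+DHT. The sum of the 10 other genes was 467, 453 and 472 in the control libraries, 429.9, 418 and 446 with DHT alone, 376, 404 and 399.7 in ADM and 402, 382 and 377 when ADM held DHT. The summed FPKM of the replication-dependent genes was thus below that of the others in regular medium and above it in adipogenic medium in every library but 1, ADM+DHT replicate 1. Group means were 289.6 ± 37.2 against 464 ± 10.1 FPKM (SD, n = 3) in control and 579 ± 26.1 against 393 ± 15.0 in ADM. The higher sum is no rise of the whole class. Hist2h2aa1, Hist2h2aa2 and Hist1h2bc held 47.8% of it in control and 81.8% in ADM. The summed H2A genes of chromosome 13 went from a mean of 115 to 23.5 FPKM. Since poly(A) selection discards most of the normal message of this class, its level against the other class in the cells cannot be read from these sums.

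H2A and H2B genes often face each other across a short shared promoter region. In the annotation used here 9 such head-to-head pairs were found among the histone genes, with gaps of 175 to 301 bases. The mean of the H2A gene was lower in ADM than in control in 8 of the 9 pairs and that of the H2B gene higher in 8 of the 9, both together in 7. The pairs are not separate observations. Hist1h2bq and Hist1h2br, across from the copies Hist1h2ao and Hist1h2ap, shared 100% and 99.8% of their windows, each other included. The H2B means of Hist1h2bl, Hist1h2bn, Hist1h2bq, Hist1h2br and Hist2h2be were under 1 FPKM in both groups, where the unknown depth limits values. In 3 pairs both genes passed and in opposite directions: Hist1h2ac fell by 0.56 and Hist1h2bc rose by 1.53, Hist1h2ae fell by 1.21 and Hist1h2bg rose by 1.39, and Hist1h2ah fell by 1.77 and Hist1h2bk rose by 0.48 on the log2 scale. Hist1h2ac and Hist1h2ae reached 1 FPKM in control only and Hist1h2bk in ADM only, so that the filter favoured their directions. The pair on chromosome 3, Hist2h2ac and Hist2h2be, was the 1 pair whose H2A gene rose. In 4 pairs the H2B gene was too low to test (Hist1h2bl, Hist1h2bq, Hist1h2br and Hist2h2be), in 1 pair (Hist1h2ak and Hist1h2bn) neither gene was tested, and Hist1h2bj, across from Hist1h2ag, did not pass.

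**Figure D3:**
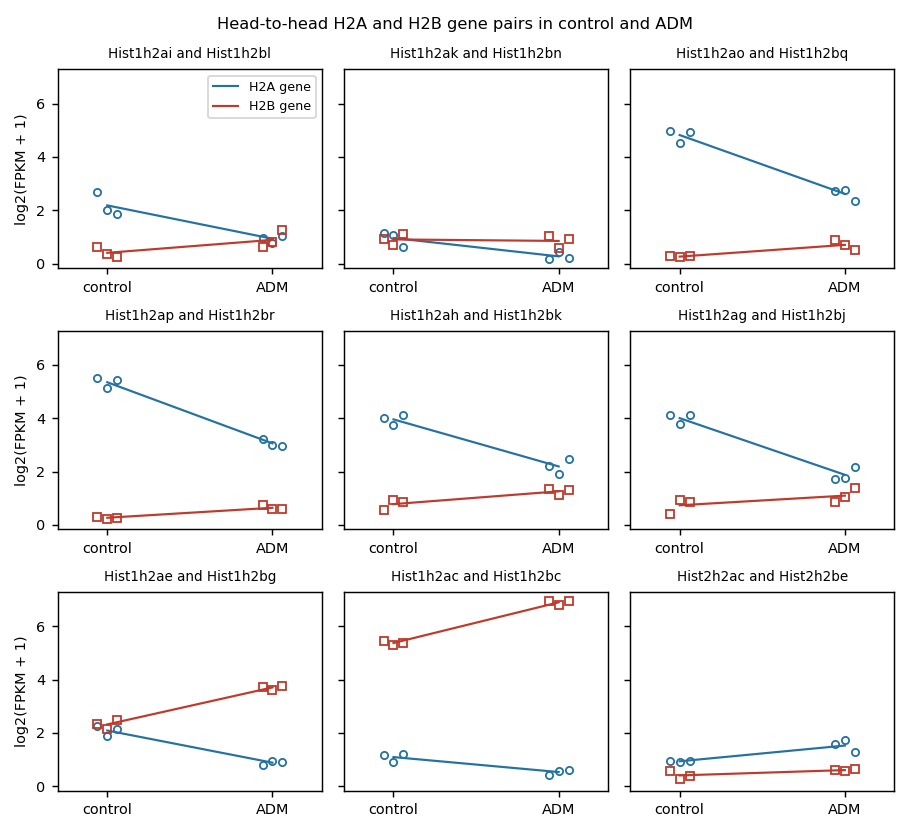
log2(FPKM + 1) in the 3 control and 3 ADM libraries for both genes of the 9 head-to-head pairs (circles, H2A gene; squares, H2B gene; lines join group means). The H2A line falls in 8 panels and the H2B line rises in 8, with the lowest right panel (Hist2h2ac and Hist2h2be) rising in both.

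RefSeq promoter sequences (GRCm38.p6, 250 bases before to 50 after the annotated start) are shown for the H2B genes Hist1h2bg and Hist1h2bk. In each case the same stretch lies between a gene that rose and a gene that fell. Hist1h2bc, the H2B gene of the remaining pair with opposite calls, is not shown because no RefSeq promoter was matched to it. Capitals mark CCAAT, ATTTGCAT (the octamer known from H2B promoters) and TATAAA on either strand.
Hist1h2bg (chr13:23571150-23571449, plus strand): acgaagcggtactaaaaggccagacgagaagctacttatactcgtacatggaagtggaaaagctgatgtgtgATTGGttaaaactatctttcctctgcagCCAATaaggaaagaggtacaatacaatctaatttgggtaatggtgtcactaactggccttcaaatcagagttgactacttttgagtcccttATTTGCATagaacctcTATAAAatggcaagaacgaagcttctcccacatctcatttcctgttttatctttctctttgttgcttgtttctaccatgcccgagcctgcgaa
Hist1h2bk (chr13:22035571-22035870, plus strand): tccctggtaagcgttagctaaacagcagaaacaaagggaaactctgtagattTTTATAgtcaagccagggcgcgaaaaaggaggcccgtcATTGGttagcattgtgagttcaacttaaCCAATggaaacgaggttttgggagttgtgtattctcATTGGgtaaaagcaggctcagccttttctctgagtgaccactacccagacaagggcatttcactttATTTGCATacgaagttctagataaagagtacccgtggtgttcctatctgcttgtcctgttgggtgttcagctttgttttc
The first covers the whole gap of 175 bases between Hist1h2ae and Hist1h2bg and the second nearly all of the 301 bases between Hist1h2ah and Hist1h2bk. Both hold CCAAT on both strands, 1 octamer and 1 TATAAA. RefSeq promoters matched 47 of the 52 histone genes, 38 of them replication-dependent. CCAAT on either strand was found in 33 of those 38 (86.8%), against 41.1% of all 27025 genes with a promoter in the table. ATTTGCAT was found in 11 of 38 (28.9%, against 1.97%), all in H2A or H2B promoters, and TATAAA in 18 of 38 (47.4%, against 15.7%). Promoters of head-to-head partners can overlap and both strands were searched, so that 1 site may count for both genes. This may hold for Hist1h2ae with Hist1h2bg and Hist1h2ah with Hist1h2bk, which were all counted for ATTTGCAT. The shares are therefore not those of separate promoters. H4 genes differed within the class, with CCAAT in 1 of 6 promoters. Of the 9 other histone genes with a promoter, 6 held CCAAT, 1 held ATTTGCAT and 1 held TATAAA. A match describes letters and is no evidence of binding.

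Genes of both directions occurred with either position of the stem-loop. Of 11 tested genes whose transcript ends within 60 bases of it, 5 rose and 5 fell, and of 9 whose transcript runs on for more than 60 bases, 3 rose and 3 fell. The 7 tested replication-dependent genes with no match gave 3 rises and 3 falls. Over all genes tested 28.3% rose and 33.3% fell. Hist2h2ac, Hist1h2bk, Hist1h4h, Hist2h3c1, Hist1h4a and Hist1h4k reached the filter level in ADM only, so that the filter favoured a rise. It favoured a fall in Hist1h2ab, Hist1h2ad, Hist1h2ac, Hist1h2ae, Hist1h2ai and Hist1h2an, which reached that level in control only. Near-identical copies were counted separately, and a link of direction to the stem-loop was not tested.

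The other histone genes moved less in ADM. H2afz (chr3:137864487-137866922, plus strand), which encodes the variant H2A.Z found at promoters, stood at 49.3, 46.8 and 49.9 FPKM in the 3 controls, 39.1, 40.4 and 39.0 in the 3 DHT libraries, 19.0, 19.0 and 19.3 in the ADM libraries and 16.6, 15.7 and 15.7 in those of ADM+DHT. No groups overlapped, and the ADM difference was -1.31 ± 0.04 (adjusted p = 3.12e-07). H2afx, the variant phosphorylated at DNA breaks and the 1 gene of this class with a stem-loop, gave 38.1, 36.2 and 40.0 FPKM among controls, 30.5, 34.8 and 33.4 after DHT, 23.0, 25.0 and 25.7 after ADM and 20.6, 16.5 and 19.6 after ADM+DHT, again without overlap between groups (-0.61 ± 0.06 for ADM, adjusted p = 6.62e-05). H2afy and H2afy2 encode macroH2A proteins, large variants enriched on the inactive X chromosome. H2afy2 was at 49.3, 50.0 and 54.9 FPKM in the control libraries, 45.7, 43.7 and 44.8 with DHT alone, 40.2, 37.7 and 40.2 in ADM and 32.4, 31.9 and 30.1 when ADM held DHT. H2afy was at 10.6, 10.3 and 10.8 FPKM in the 3 controls, 8.61, 8.82 and 8.76 in the 3 DHT libraries, 7.70, 8.59 and 8.47 in the ADM libraries and 7.08, 7.23 and 8.08 in those of ADM+DHT. In both genes every ADM library lay below every control library, with differences of -0.37 ± 0.05 and -0.32 ± 0.06.

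H2afj was the exception in direction. Its values were 43.2, 44.4 and 45.7 FPKM among controls, 46.3, 44.1 and 45.7 after DHT, 59.5, 63.4 and 65.9 after ADM and 51.5, 50.2 and 47.9 after ADM+DHT. The ADM libraries were above all others and the rise from control was 0.49 ± 0.05 (adjusted p = 8.49e-05). H2afv, a close relative of H2afz, was at 26.8, 23.6 and 24.4 FPKM in the control libraries, 25.4, 25.8 and 29.8 with DHT alone, 21.8, 21.5 and 25.6 in ADM and 24.5, 26.8 and 23.6 when ADM held DHT. These ranges overlapped and ADM did not pass against control (-0.12 ± 0.08, adjusted p = 0.239), although without ADM replicate 3 it did (adjusted p = 0.0451).

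H3f3a and H3f3b are separate genes for the replacement histone H3.3. H3f3a stood at 82.9, 81.4 and 69.4 FPKM in the 3 controls, 71.7, 66.7 and 72.0 in the 3 DHT libraries, 72.6, 96.7 and 78.8 in the ADM libraries and 96.1, 71.1 and 78.6 in those of ADM+DHT. The groups overlapped and ADM did not pass against control (0.08 ± 0.11, adjusted p = 0.572). H3f3b gave 57.5, 55.3 and 62.0 FPKM among controls, 61.1, 54.5 and 63.6 after DHT, 49.9, 42.8 and 44.3 after ADM and 56.0, 54.0 and 65.7 after ADM+DHT, so that all ADM libraries lay below all control libraries (-0.35 ± 0.07, adjusted p = 0.00341). H1f0, the linker histone variant known from cells that have stopped dividing, was the most abundant gene of this class. It read 98.7, 93.5 and 101 FPKM in the control libraries, 93.2, 86.5 and 98.0 with DHT alone, 76.4, 80.7 and 83.5 in ADM and 95.2, 96.6 and 87.8 when ADM held DHT, with ADM below the rest (-0.28 ± 0.05 against control, adjusted p = 0.00159). H1fx, another linker variant, was at 10.1, 11.1 and 14.3 FPKM in the 3 controls, 8.39, 12.2 and 11.1 in the 3 DHT libraries, 6.11, 8.59 and 8.05 in the ADM libraries and 2.03, 11.8 and 0 in those of ADM+DHT. The 3 ADM+DHT libraries disagreed from near control level to a value listed at 0, and the fall in ADM (-0.58 ± 0.15, adjusted p = 0.0118) did not pass when all 12 libraries shared 1 fit (adjusted p = 0.46).

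**Figure D4:**
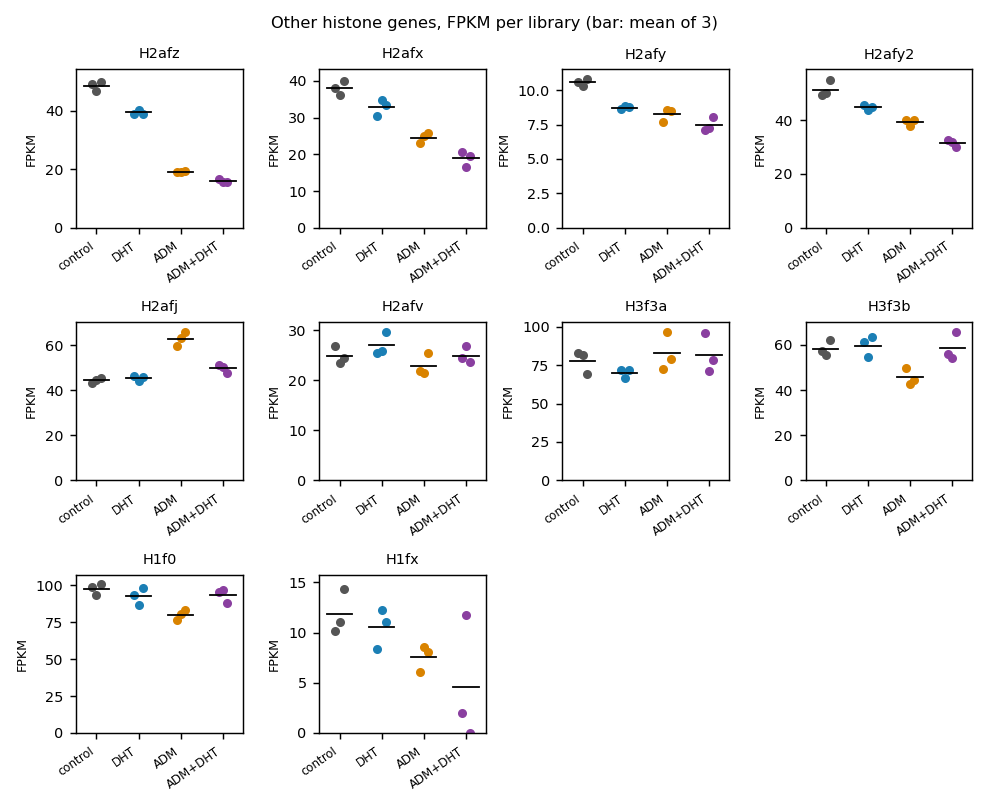
FPKM in each of the 12 libraries (points) with the group mean (bar) for the 10 other histone genes, each panel with its own axis from 0. H2afz drops from a mean of 48.7 FPKM in control to 19.1 in ADM, H2afj is highest in ADM, and the ADM+DHT libraries of H1fx lie apart from each other.

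Genes that act with histones were counted from lists chosen for their role. Of 48 genes of DNA replication and S phase, 45 fell in ADM, 1 rose (Gins4) and 2 did not pass, with a median of -1.05. Uhrf1, which recognises newly replicated DNA, fell from 24.4 ± 1.51 FPKM (SD, n = 3) in control to 3.49 ± 0.0638 in ADM, and Ccna2, the cyclin of S phase, from 19.0 ± 1.11 to 2.74 ± 0.398 FPKM. Of 34 histone chaperones and exchange factors 19 fell, 3 rose (Cabin1, Nap1l4 and Ubn1) and 12 did not pass. In all 64.7% passed against 61.6% of all genes, with 55.9% lower against 33.3% and 8.82% higher against 28.3%. Chaf1a and Chaf1b, subunits of the chaperone that loads H3 and H4 behind the replication fork, fell by 1.47 ± 0.06 and 1.52 ± 0.08 (SE) on the log2 scale. Cenpa, the H3 variant of centromeres, has a symbol outside the rule above and fell from 4.46 ± 0.201 to 0.538 ± 0.0858 FPKM. Of 20 tested genes of histone mRNA processing 10 fell, 0 rose and 10 did not pass, with a median of -0.20. The 50% that fell stand against 33.3% lower over all genes, of which 61.6% passed in either direction. Slbp, the stem-loop binding protein, fell from 8.51 ± 0.349 to 6.16 ± 0.501 FPKM (log2 difference -0.41 ± 0.07, adjusted p = 0.00174). The exonuclease Eri1, which trims histone message ends, fell by 0.51 ± 0.06, and the cleavage factor Cpsf2 by 0.70 ± 0.05. The part of these genes, of the adipocyte markers or of the mitochondrial share in the histone differences was not tested.

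With DHT in regular medium Hist2h2aa2 and Hist1h2bc rose and 4 H2A variants fell. Of 31 histone genes tested 2 rose, 4 fell and 25 did not pass, a share of 19.4% against 26.9% of all genes (12.7% higher and 14.1% lower), so the count as such does not set them apart. Both that rose were replication-dependent: Hist2h2aa2 by 0.52 ± 0.06 (adjusted p = 0.00105), and Hist1h2bc by 0.23 ± 0.06 (adjusted p = 0.0383). The 4 that fell were variants: H2afz by 0.30 ± 0.04, H2afy by 0.25 ± 0.05, H2afx by 0.21 ± 0.06 and H2afy2 by 0.19 ± 0.05. Hist2h2aa2, H2afz and H2afy passed under every alternative tried. Hist1h2bc, H2afy2 and H2afx did not: their adjusted p reached 0.105, 0.0837 and 0.125, with losses on leaving out DHT replicate 1, DHT replicate 3 or control replicate 3 for all of them, control replicate 2 for Hist1h2bc, DHT replicate 2 for H2afy2 and control replicate 1 for H2afx. All of them were also lost without an intensity trend, and Hist1h2bc and H2afx with median centring. H2afx was lost in 10 of 16 alternatives, also with quantile normalization, rescaling without mitochondrially encoded genes, the fit of all libraries and the replicate block. Without DHT replicate 3, 3 histone genes passed in place of 6, and without DHT replicate 1 or 3 the other class gave 2 falls in place of 4. The H2A genes of chromosome 13 did not pass singly, with differences from -0.28 (Hist1h2ab) to 0.03 (Hist1h2an and Hist1h2ac), and their sum was 115 ± 16.2 FPKM in control and 103 ± 14.2 in DHT. Of the replication list 26 of 48 fell and 22 did not pass, with a median of -0.29, and Slbp went from 8.51 ± 0.349 to 7.34 ± 0.0726 FPKM.

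Within adipogenic medium 14 of the 31 histone genes tested were lower with DHT, 3 were higher and 14 did not pass. Here 33.5% of all genes passed (17.2% higher and 16.3% lower), and the 21 replication-dependent genes among the 31 gave 1 rise and 10 falls with a median of -0.37, against 0.01 over all genes. Hist1h4h, with all ADM+DHT libraries between the ADM and the control libraries, fell by 1.64 ± 0.16 (adjusted p = 0.000236). Hist2h3c1 fell by 1.07 ± 0.09, from 3.95, 4.03 and 3.32 FPKM in ADM to 1.39, 1.21 and 1.19 in ADM+DHT. The H2A genes of chromosome 13 fell further from their low ADM level: Hist1h2ah by 1.19 ± 0.16, Hist1h2ag by 0.86 ± 0.17, Hist1h2ap by 0.78 ± 0.14 and Hist1h2ao by 0.77 ± 0.15, and the ADM sum of the 12 genes was 2.19 times that of ADM+DHT. Genes that ADM had raised fell too, Hist2h2aa2 by 0.42 ± 0.06, Hist1h2bg by 0.24 ± 0.06 and Hist1h2bc by 0.17 ± 0.04. Hist2h2bb rose by 0.82 ± 0.12, from 0.262, 0.555 and 0.452 to 1.74, 1.25 and 1.56 FPKM, without overlap. It reached 1 FPKM in ADM+DHT only, so that the filter favoured a rise. Hist2h2aa1 did not pass (-0.77 ± 0.28, adjusted p = 0.0765), but without ADM+DHT replicate 1 its difference was -0.40 with an adjusted p of 0.00479.

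Of the other class H2afx, H2afj, H2afy2 and H2afz fell, by 0.37 ± 0.09, 0.33 ± 0.05, 0.31 ± 0.05 and 0.24 ± 0.04, and H3f3b and H1f0 rose, by 0.35 ± 0.09 and 0.21 ± 0.05. H1fx did not pass (-1.33 ± 0.81); without ADM+DHT replicate 2, the library near control level, its difference was -2.29 with an adjusted p of 0.012, and without replicate 3 it was -0.45. Several of the smaller calls rested on single libraries, and without ADM replicate 2 or 3 or ADM+DHT replicate 1 or 2 this class gave 1 rise in place of 2. Without ADM replicate 2 or 3 H3f3b and H2afx did not pass (adjusted p up to 0.0633 and 0.053), and H1f0 did not without ADM+DHT replicate 1 or 2 (up to 0.0566). Hist1h2bg did not pass without ADM replicate 1 or ADM+DHT replicate 3 (up to 0.0535), Hist1h2bc did not without ADM replicate 1 or 3 or any 1 of the ADM+DHT replicates (up to 0.0679), and Hist1h4k, which fell by 0.76 ± 0.21, did not without ADM replicate 1 or 2 or ADM+DHT replicate 2 or 3 (up to 0.0928). Hist1h4k reached 1 FPKM in ADM only, which favoured a fall. In the replication list 3 genes rose and 7 of 41 tested fell. Over the same pair the summed adipocyte markers were lower in every ADM+DHT library than in every ADM library, and the mitochondrial share went from 16.8% to 13.6%; their part in the histone differences was not tested.

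The difference between the DHT responses in the 2 media was tested directly. In all 25.4% of genes passed (12.5% higher in adipogenic medium and 12.9% lower), and of 37 histone genes, at a share close to that (24.3%), 1 had a more positive DHT difference in adipogenic medium, 8 a more negative one and 28 did not pass. The 8 were Hist1h4h (-1.69 ± 0.40), Hist2h3c1 (-1.49 ± 0.24), Hist1h2ah (-0.998 ± 0.21), Hist2h2aa2 (-0.94 ± 0.09), Hist1h2ap (-0.68 ± 0.20), Hist1h2bg (-0.46 ± 0.13), Hist1h2bc (-0.39 ± 0.08) and H2afj (-0.36 ± 0.06). H1f0 was the 1 with a positive interaction (0.29 ± 0.08). For Hist2h2aa2 and Hist1h2bc the sign itself turned, since both rose with DHT in regular medium and fell with it in adipogenic medium. In Hist1h2bc both of these calls were lost under several alternatives (adjusted p up to 0.105 and 0.0679), while its interaction passed under all of them. The interaction of Hist1h2ap did not pass without control replicate 2, DHT replicate 3 or ADM replicate 1 (adjusted p up to 0.0632), that of Hist1h2bg did not without ADM replicate 3 (0.0504), and that of Hist1h4h did not with a pseudocount of 0.1 (0.0857). H2afz, which fell with DHT in both media, did not pass the interaction (0.05 ± 0.05).

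**Figure D5:**
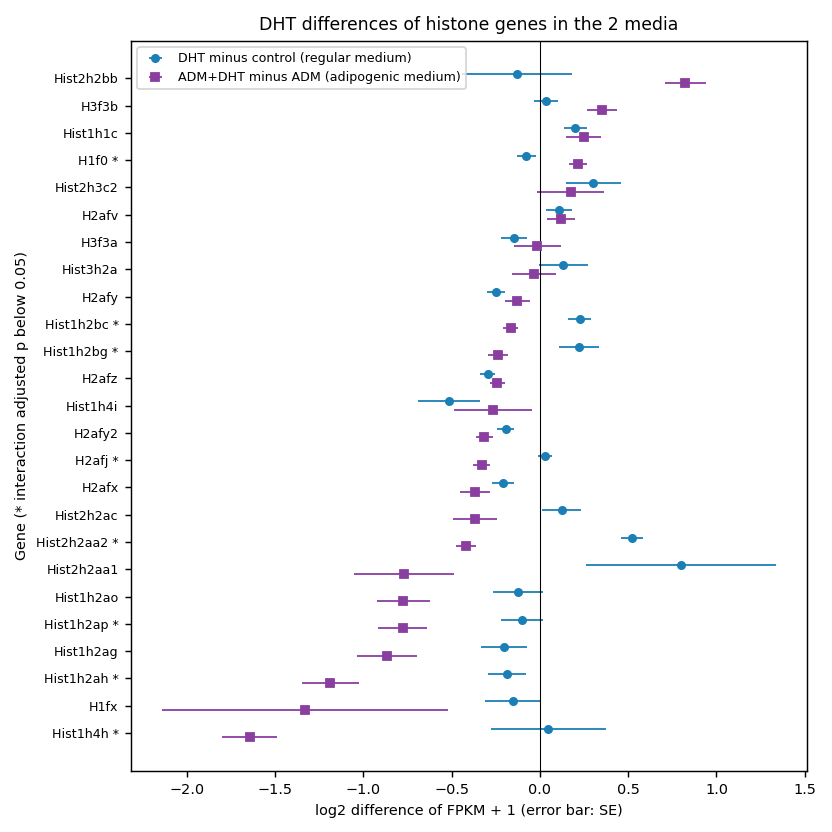
Log2 difference of FPKM + 1 made by DHT in regular medium (circles) and in adipogenic medium (squares), with SE (n = 3 libraries per group), for the 25 histone genes tested in both pairs, ordered by the difference in adipogenic medium; an asterisk marks an interaction that passed. The circles lie near 0 for most genes, while the squares of Hist1h4h, Hist1h2ah, Hist1h2ag, Hist1h2ap and Hist1h2ao lie between -1.64 and -0.77.

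The medium difference in the presence of DHT, ADM+DHT against DHT, shares libraries with the pairs above and is given beside them for its own values. Of all genes 50.0% passed (23.3% higher and 26.7% lower), and of 33 histone genes tested 9 rose, 14 fell and 10 did not pass. The 4 H2A genes of chromosome 13 that reached 1 FPKM in both groups fell, Hist1h2ap by 2.97 on the log2 scale. A further 6 reached it in DHT only, which favoured a fall, and had differences from -0.81 (Hist1h2ac) to -1.70 (Hist1h2ai). The DHT sum of the 12 genes was 9.61 times the ADM+DHT sum. Hist1h4h rose by 1.63 ± 0.31, Hist1h2bc by 1.13 ± 0.05, Hist1h2bg by 0.93 ± 0.08, Hist1h1c by 0.81 ± 0.06 and Hist2h2aa2 by 0.75 ± 0.07. The filter favoured a rise in Hist1h2bk and Hist2h2bb, which reached 1 FPKM in ADM+DHT only. Hist1h2bk, Hist2h2bb and Hist2h3c2 also rose, by 0.42, 0.45 and 0.40, but none of them kept the call without DHT replicate 1. Without that library, or without ADM+DHT replicate 3, 5 replication-dependent genes rose in place of 8. In the other class H2afz fell by 1.25 ± 0.04, H2afx by 0.77 ± 0.09 and H2afy2 by 0.49 ± 0.04, while H2afy fell by 0.20 ± 0.06 and H2afj rose by 0.13 ± 0.04. The calls of H2afy and H2afj ended on leaving out 1 of several libraries, DHT replicates 2 and 3 and ADM+DHT replicates 1 and 2 for both genes and DHT replicate 1 for H2afy (adjusted p up to 0.0878 and 0.0889). That of H2afj also ended with quantile normalization (0.05, adjusted p = 0.279). Hist2h2aa1 did not pass (0.72 ± 0.37), and did without ADM+DHT replicate 1 (1.09, adjusted p = 0.0268).

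Across the 4 groups the order of levels was alike in several genes. H2afz, H2afx, H2afy and H2afy2, and Hist1h2ap, Hist1h2ao, Hist1h2ag and Hist1h2ah, had their means in the order control, DHT, ADM and ADM+DHT from high to low, although DHT did not pass against control in the latter 4, nor ADM+DHT against ADM in H2afy. Hist2h2aa2 and Hist1h2bc had the order ADM, ADM+DHT, DHT and control. In the authors' deposited table of ADM against control, whose test the sources used here do not name, 16 of the 52 histone genes were higher and 17 lower at a q-value below 0.05, against 24.6% and 29.0% of all genes in it. The authors' deposited tables gave 1 higher and 12 lower of 48 for ADM+DHT against ADM (12.4% and 11.9% of all genes), 6 higher and 13 lower of 43 for ADM+DHT against DHT (18.6% and 22.0%), and 1 higher and 2 lower of 40 for DHT against control (8.55% and 9.45%).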

How the data were processed

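Poly(A)-selected, strand-specific libraries from 12 cultures were read for 150 cycles, per the labels' protocols. FastQC, cutadapt, HISAT2, StringTie and the build GRCm38 stand in the submitters' processing notes, without versions. Per the file headers, the authors' 4 tables hold FPKM per library for 1 pair of groups each. The deposited group columns and log2 fold change were found to be means of log2(FPKM + 1) over 3 libraries and their difference. The authors' fold change is a ratio on the linear scale. The p-value and q-value in the deposited tables come from an unnamed test and serve here for counts alone.

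A library's FPKM never differed between tables (largest difference 0). Each of them had a single emptied line, not analysed here. The title of 1 ADM+DHT library is spelled unlike the others and was taken as replicate 2 of that group. A search for whole-number steps explained at most 22.0% of 150 low genes per library (tolerance 0.05), so no counts could be recovered and precision rests on the 3 replicates.

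The values log2(FPKM + 1) were tested two-sided with limma 3.58.1 in R 4.3.3 with an intensity trend. The filter was a group mean of 1 FPKM or more in either group. Each pair was fitted on its 6 libraries and the interaction on all 12. Benjamini-Hochberg adjustment ran across every gene tested, at a threshold of 0.05, and the procedure was tested on simulated data. Deviations of same-numbered libraries correlated weakly (correlations -0.141 to 0.144, above 0.1 in 2 of 12 pairs), so no block was used in the main fits. Alternatives were other pseudocounts, filters, variance models and scalings, a fit of all libraries, a replicate block and leaving out each library.

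Every library's value is given for the 8 replication-dependent and 10 other genes with the highest mean, and for the largest rise or fall of each class in a pair. From the context lists come Slbp, Cenpa and up to 4 genes per list with the smallest adjusted p in ADM against control. The few context genes that rose, and further members described, were named after their values were seen. Members and lists were chosen with earlier results of these data known. Stem-loops, shared 150-base windows and head-to-head pairs (gap of at most 500 bases) come from GENCODE M21, promoters from RefSeq GRCm38.p6. Figures were drawn in matplotlib 3.10.9 and tables in pandas 2.3.3 (Python 3.11.15).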

Additional observations from a re-analysis of the deposited data

Results flagged for a closer look

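Of the 37 histone genes tested, 9 responded to DHT differently in the 2 media by the test of that difference itself, the log2 difference made by DHT in adipogenic medium minus that in regular medium. This share (24.3%) is about that of all genes (25.4%), so the count is no result about histone genes, and the values are given gene by gene. The value was -1.6922 for Hist1h4h, which in regular medium was near 1 FPKM with and without DHT, and -1.4947 for Hist2h3c1, which was likewise low there. It was -0.9983 for Hist1h2ah and -0.6763 for Hist1h2ap, H2A genes of chromosome 13 that ADM had already lowered. For Hist2h2aa2 it was -0.9409 and for Hist1h2bc -0.3905, genes that rose with DHT in regular medium and fell with it in ADM. In Hist1h2bc neither that rise nor that fall lasted under every alternative. The interaction value was -0.4585 for Hist1h2bg and -0.3585 for H2afj. The linker variant H1f0 gave the opposite sign, 0.2921.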

How the results depend on the processing

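The number of histone genes past the threshold was 30 in ADM against control and 18 with a filter at 5 FPKM, where 20 in place of 37 were tested. It was 23 in ADM+DHT against DHT and 14 with that filter (20 tested in place of 33). In DHT against control it was 6, and 3 without an intensity trend (the cause was not tested). With no filter on low values 18 replication-dependent genes rose in ADM in place of 11, since 52 genes were tested. Leaving out each library in turn gave 29 to 31 for ADM against control, 3 (without DHT replicate 3) to 7 for DHT against control, 14 to 16 for ADM+DHT against ADM, 19 to 23 for ADM+DHT against DHT and 8 to 11 for the interaction. Summed FPKM of the replication-dependent genes then ranged from 278 to 311 in control, 330.5 to 341 in DHT, 566 to 592 in ADM and 414 to 451 in ADM+DHT. Of 85 differences of single genes that passed, 65 passed under every alternative in which the gene was tested and 0 turned their sign. Genes that the filter at 5 FPKM left out were not tested under that setting.

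The signs that turned all belong to differences that had not passed. With quantile normalization they were -0.0027 for Hist1h4h (DHT against control), 0.0266 for H3f3a (ADM+DHT against ADM) and -0.0191 for H2afv (interaction), and with rescaling to the sum without mitochondrially encoded genes -0.0035 for H2afv (interaction). Without 1 library H3f3a ran from -0.0380 to 0.1664 in ADM against control and from -0.1332 to 0.1028 in ADM+DHT against ADM. In DHT against control H3f3b ran from -0.0127 to 0.0970, Hist1h4h from -0.2005 to 0.2384 and Hist2h2bb from -0.4501 to 0.0077. In ADM+DHT against DHT H1f0 ran from -0.0371 to 0.0519 and H3f3b from -0.1137 to 0.0249, and in the interaction Hist1h1c from -0.0450 to 0.1580 and H2afv from -0.0413 to 0.0875. Deviations of same-numbered libraries correlated weakly, which cannot show whether they shared a culture or a batch. With a replicate block 31 histone genes passed in ADM against control, 6 in DHT against control, 16 in ADM+DHT against ADM (17 without the block), 20 in ADM+DHT against DHT and 11 in the interaction, and over all comparisons 6 single-gene calls were lost and 4 gained. Scalings moved the median over all genes by under 0.1. A pseudocount of 0.1 enlarged the differences of genes near 1 FPKM, for example to 3.22 for Hist2h3c1 in ADM against control. The unknown depth limits all values under about 1 FPKM, and the fold of genes with copies is uncertain.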
